A study of Mus musculus with 8 samples.

Results

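The genes described here are 10 members of the circadian clock, chosen by name: the activators Arntl, Clock and Npas2, the period genes Per1, Per2 and Per3, the cryptochrome gene Cry1, the REV-ERB genes Nr1d1 and Nr1d2, and the clock-controlled factor Dbp. They are 10 of the 33212 genes in the count table, and all 10 passed the filter on low counts that left 15291 genes for testing. The data are RNA-seq of whole liver from male C57BL/6 mice, 4 Nnmt KO mice (Alb-Cre::Nnmt flox/flox, named Nnmt LKO in the table) and 4 control mice (Nnmt flox/flox, with WT as the genotype in the sample labels). Nnmt encodes nicotinamide N-methyltransferase. Cre under the albumin promoter acts in hepatocytes, so other liver cells keep an intact Nnmt gene. By the study's description, though not by the WT labels, the floxed alleles were shared by both groups. For 8 weeks all mice ate a diet deficient in methionine and choline (MCD) under a light/dark cycle with free access to food, so that no group on a normal diet and no group with Cre alone can be compared here. The age of these mice and the time of day at which their livers were taken are not given in the sources used here. Letters a to d name the 4 libraries of a genotype in the order of the table, since the columns carry no mouse number, and a letter pairs nothing between genotypes.

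The clock is a transcriptional feedback loop that runs in almost every cell. ARNTL (also called BMAL1) pairs with CLOCK or NPAS2, binds E-boxes and switches on the Per, Cry, Nr1d and Dbp genes, and the PER and CRY proteins later shut the pair off. NR1D1 and NR1D2 (REV-ERB) repress Arntl and other genes through ROR elements, while DBP acts through D-boxes, so that Arntl and Npas2 are high when Dbp, Nr1d1 and the Per genes are low, and liver levels of these RNAs depend strongly on the time of day.

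Letter matches to E-boxes, D-boxes and ROR elements are printed from the RefSeq promoters of GRCm38.p6. These promoters run from 250 bases before to 50 bases after each start site and were available for 9 of the 10 members. The capitals mark the motif, which was searched on both strands. The E-box CACGTG is in 7.15% of all 32851 promoters, the D-box TTANGTAA in 2.32% and the ROR element TAGGTNA in 8.29%. Per1 and Cry1 each held 1 E-box at positions -166 and -60 from the start site, which for Per1 is a RefSeq start inside the span GENCODE gives the gene. The other members with a promoter, Dbp, Nr1d1 and Nr1d2 among them, held no CACGTG in these windows. Per3 held both D-boxes of the set, at -205 and -158. Arntl held both ROR elements, at positions 41 and 31, counted from different RefSeq start sites. Each lies after its start site and in a window that overlaps an annotated exon. A match describes the letters in these windows and shows no binding.
Per1, E-box, chr11:69098756-69098815, plus strand: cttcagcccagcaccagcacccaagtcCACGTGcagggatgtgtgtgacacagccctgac
Cry1, E-box, chr10:85185082-85185141, minus strand: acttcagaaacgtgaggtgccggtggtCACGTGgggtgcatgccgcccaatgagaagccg
Per3, D-box, chr4:151044837-151044896, minus strand: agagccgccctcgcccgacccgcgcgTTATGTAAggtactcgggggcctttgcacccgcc
Per3, D-box, chr4:151044790-151044849, minus strand: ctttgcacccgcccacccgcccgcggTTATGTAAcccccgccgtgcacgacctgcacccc
Arntl, ROR element, chr7:113207485-113207514, plus strand: ggagcggattggtcggaaagTAGGTTAgtg
Arntl, ROR element, chr7:113207529-113207558, plus strand: gaaggcagaaagTAGGTCAgggacggaggt

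Total counts ran from 75020072 to 87934362 per library, so 3 counts stood for 0.0341 to 0.04 CPM, the count of a gene relative to its library's total, scaled by TMM. The members had between 106 and 10188 counts in a library, so counting error was small beside the spread between mice. Libraries of the same genotype differed far beyond sampling noise (chi-square per degree of freedom of 35.2 to 217 over 12 pairs), and no library was a copy of another. Nnmt was at 57.1 ± 23.1 CPM in Nnmt KO livers and 139 ± 60.5 CPM in control livers (mean ± SD, n = 4 each). The groups did not overlap, with 83.0 CPM in Nnmt KO library d and 84.9 CPM in control library d next to each other, and the log2 fold change was -1.28 (SE 0.33, adjusted p = 0.123). Adjusted p-values are Benjamini-Hochberg values over all tested genes from edgeR's quasi-likelihood test unless another test is named. In bulk liver, fewer cells of a type and less RNA per cell cannot be told apart, and this holds for every gene below.

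No clock member passed an adjusted p of 0.05 between Nnmt KO and control livers, with 0 of 10 against a background of 0.32% of all tested genes by edgeR (0.183% higher and 0.137% lower), and DESeq2 also called 0 of 10 (background 3.22%). Of the 10 members, 5 were higher and 5 lower in Nnmt KO livers, with a median log2 fold change of 0.03 beside 0.02 over all tested genes. At an unadjusted p of 0.05 the count was 3 of 10, where the background was 12.6%. These were Arntl and Nr1d1 with lower values (background 7.13%) and Nr1d2 with higher values (background 5.45%). The count was 0 without Nnmt KO c or without Nnmt KO d, and 1 without Nnmt KO a or without control d. The libraries of both genotypes overlapped for every member, while 8.16% of all tested genes had groups that did not overlap (3.34% higher and 4.81% lower).

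**Figure D1:**
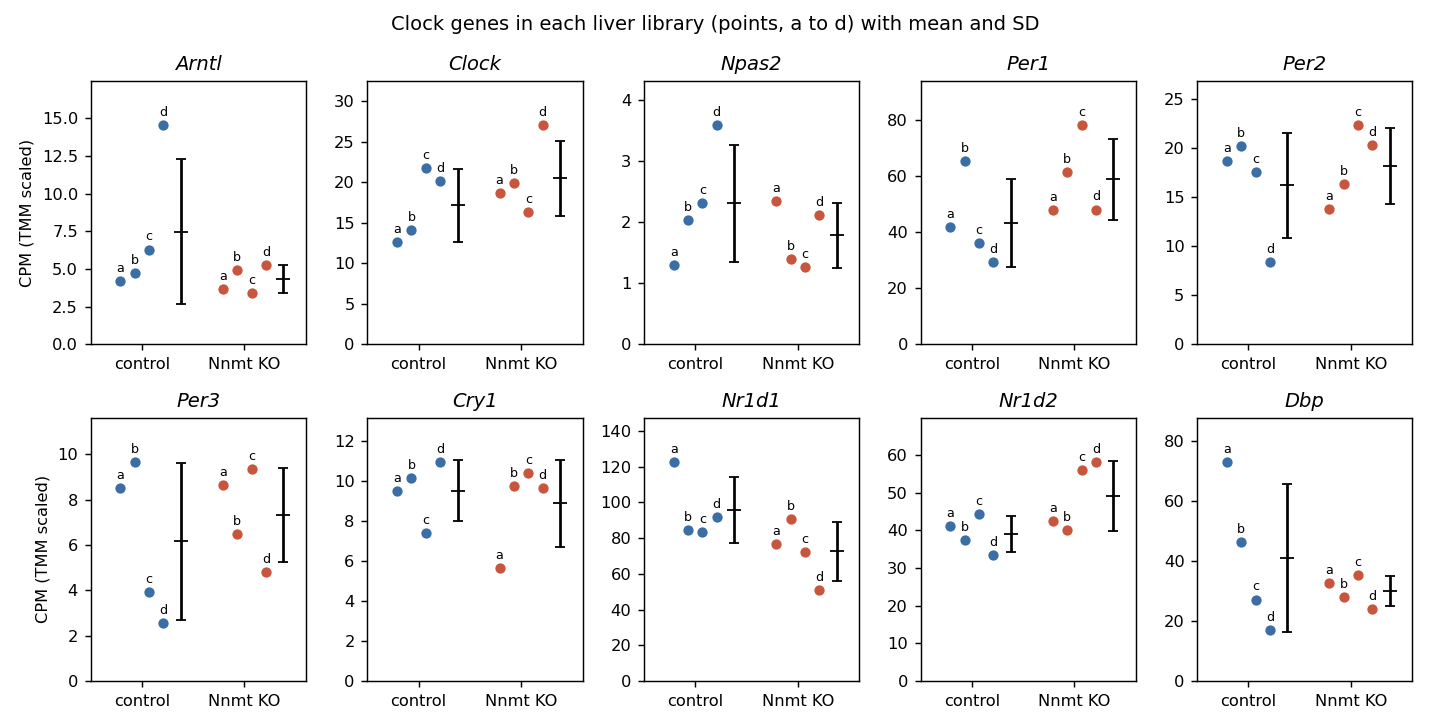
CPM of the 10 clock members in each library, with 1 point for each of the 4 control and 4 Nnmt KO mice (letters a to d) and the mean and SD of each group. The genotypes overlap for every gene, and control library d holds the highest Arntl (14.6 CPM) and the lowest Dbp (17.0 CPM).

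Arntl, whose protein is the obligate partner in the loop (chr7:113207465-113314126 of GRCm38, plus strand), was at 3.65, 4.96, 3.38 and 5.23 CPM in Nnmt KO libraries a to d and at 4.22, 4.75, 6.29 and 14.6 CPM in control libraries a to d. Control d alone was above 7 CPM, and the other 7 libraries were intermixed apart from control c at the top of them. The log2 fold change was -0.79 (SE 0.36, p = 0.0481, adjusted p = 0.391), and the exact permutation test over libraries gave p = 0.171. Without control d the log2 fold change was -0.24 (adjusted p = 0.65, in a fit where 0.142% of genes passed and 14% had an unadjusted p under 0.05), so the size of the Arntl difference rested on that library.

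Clock, which encodes the main partner of ARNTL (chr5:76209868-76304792, minus strand), was at 18.6, 19.9, 16.3 and 27.1 CPM in Nnmt KO livers and 12.6, 14.2, 21.7 and 20.1 CPM in control livers. Its groups lay inside each other's range apart from the lowest control libraries and the highest Nnmt KO library (log2 fold change 0.26, SE 0.20, adjusted p = 0.641). Npas2, the paralog that can stand in for CLOCK (chr1:39193731-39363236, plus strand), was at 2.35, 1.39, 1.27 and 2.12 CPM in Nnmt KO livers and 1.29, 2.03, 2.32 and 3.59 CPM in control livers. Its highest library was again control d, and the log2 fold change was -0.37 (SE 0.33, adjusted p = 0.676).

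The genotypes overlapped for the repressors of the loop too. Per1, a period gene that outside signals can induce directly (chr11:69095217-69109960, plus strand), was at 47.8, 61.5, 78.3 and 48.1 CPM in Nnmt KO livers and 41.9, 65.6, 36.3 and 29.4 CPM in control livers. Control b was the only control library within the Nnmt KO range, and the log2 fold change of 0.45 (SE 0.24, adjusted p = 0.467) was the highest among the members. Per2 (chr1:91415982-91459324, minus strand) was at 13.8, 16.3, 22.4 and 20.4 CPM in Nnmt KO livers and 18.7, 20.3, 17.6 and 8.41 CPM in control livers, with control d apart from the rest. Per3 (chr4:151003652-151044665, minus strand), the gene with both D-boxes printed above, was at 8.65, 6.47, 9.35 and 4.81 CPM in Nnmt KO livers and at 8.50, 9.68, 3.91 and 2.56 CPM in control livers. Controls a and b sat with Nnmt KO a and c at the top, and controls c and d were the lowest. The log2 fold changes of Per2 and Per3 were 0.17 (SE 0.25) and 0.25 (SE 0.38), and both turned slightly negative without control d (-0.05 and -0.01). Cry1, whose protein inhibits CLOCK and ARNTL (chr10:85131700-85185064, minus strand), was at 5.66, 9.75, 10.4 and 9.65 CPM in Nnmt KO livers and 9.49, 10.1, 7.39 and 10.95 CPM in control livers. Nnmt KO a was below all other libraries, and the log2 fold change went from -0.10 (SE 0.20) to 0.07 without it.

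The REV-ERB genes, which share a function, had opposite signs. Nr1d1 (chr11:98767932-98775333, minus strand) was at 76.7, 90.5, 72.0 and 50.9 CPM in Nnmt KO livers and 123, 84.5, 83.7 and 91.9 CPM in control livers. Nnmt KO b alone reached into the control values (log2 fold change -0.40, SE 0.18, adjusted p = 0.391). Nr1d2 (chr14:18204054-18239127, minus strand) was at 42.4, 40.0, 56.1 and 58.3 CPM in Nnmt KO livers and 41.1, 37.3, 44.2 and 33.4 CPM in control livers. Nnmt KO c and d were above all controls, and Nnmt KO a and b were inside the control range (log2 fold change 0.33, SE 0.15, adjusted p = 0.374). The exact permutation test gave p = 0.0857 for Nr1d1 and p = 0.143 for Nr1d2, where 4 against 4 libraries can go no lower than 0.0286.

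The ratio of Nr1d1 to Nr1d2 in CPM was computed after these values were seen. It was 1.81, 2.26, 1.28 and 0.873 in Nnmt KO libraries and 2.99, 2.26, 1.89 and 2.75 in control libraries. The ratio was lower in Nnmt KO livers by -0.74 on the log2 scale (1.56 ± 0.607 against 2.48 ± 0.493, SD, n = 4), with overlap between the groups and p = 0.0571 by a two-sided exact permutation test. Nr1d1 shares 263 of its 3077 exon bases (8.55%) with Thra on the opposite strand, and the strand setting of the counting is not given. Thra had a log2 fold change of 0.08 and a mean count of 1257, beside 6946 for Nr1d1.

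Dbp, a D-box activator that follows CLOCK and ARNTL directly (chr7:45705088-45710203, plus strand), was at 32.6, 28.0, 35.4 and 24.1 CPM in Nnmt KO livers. In control livers it was at 73.2, 46.5, 27.2 and 17.0 CPM, so that the controls held both the highest libraries and the lowest. The log2 fold change was -0.45 (SE 0.35, adjusted p = 0.64) and became 0.01 without control a. Dbp shares 539 of its 2993 exon bases (18.0%) with Sphk2 on the opposite strand, and Sphk2 had a mean count of 4400 beside 2915 for Dbp. Sphk2 was lower in every Nnmt KO library than in every control library (log2 fold change -0.36, SE 0.11, adjusted p = 0.2). Reads of the shared bases cannot be told apart without strand.

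Compared per kb of exon length, Nr1d1 was the most abundant member in both genotypes, at 31.1 ± 6.00 CPM per kb in control livers and 23.6 ± 5.34 in Nnmt KO livers. In control livers Dbp followed at 13.7 ± 8.26 CPM per kb, then Per1 at 7.68 ± 2.79 and Nr1d2 at 7.21 ± 0.866, and these neighbours overlapped. Nr1d1 did not overlap Dbp, and Nr1d2 did not overlap the next gene, Cry1. Below that step Cry1 and Per2 were at 2.84 ± 0.457 and 2.77 ± 0.910, Clock and Arntl at 1.25 ± 0.325 and 0.991 ± 0.641, and Per3 and Npas2 at 0.641 ± 0.360 and 0.482 ± 0.200 CPM per kb. Each of these neighbours overlapped the next. In Nnmt KO livers Per1 (10.5 ± 2.56) and Dbp (10.04 ± 1.67) changed places, as did Cry1 with Per2 and Arntl with Per3, in each case between genes whose libraries overlapped.

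The members varied more between mice than most genes. The SD of log2 CPM within genotypes had a median of 0.446 over the members and 0.266 over all tested genes, and 25.8% of tested genes were above the members' median. Per3 (above 89.4% of genes), Dbp (87.8%) and Arntl (85.0%) varied the most, whereas Nr1d2 (42.4%) was the only member below the midpoint of all genes. The highest library was 4.31 times the lowest for Arntl, 4.30 for Dbp and 3.79 for Per3. The spread was wider among controls for 7 of the 10 members. The ratio there was 3.45 for Arntl, 4.30 for Dbp and 3.79 for Per3, against 1.55, 1.47 and 1.94 among Nnmt KO livers, and this difference in spread was not tested. Control d was the lowest library for Per1, Per2, Per3, Nr1d2 and Dbp and the highest for Arntl, Npas2 and Cry1.

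To ask whether the libraries differed in the state of the clock, the members were placed on a rising arm (Nr1d1, Nr1d2, Dbp, Per1, Per2 and Per3, which CLOCK and ARNTL or DBP drive) and a falling arm (Arntl, Clock, Npas2 and Cry1, which REV-ERB represses). The clock position of a library is the mean log2 CPM of the rising arm minus that of the falling arm, after each gene's mean over the 8 libraries is taken off. It was 0.69, 0.35, -0.32 and -1.38 in control libraries a to d, and 0.23, 0.11, 0.64 and -0.33 in Nnmt KO libraries a to d. Control d stood far below the other libraries, and control a and Nnmt KO c were the highest. The group means were -0.16 ± 0.91 in control and 0.16 ± 0.40 in Nnmt KO livers (SD, n = 4), so their difference of 0.33 was smaller than the pooled SD of 0.70. Without control d the difference was -0.08, and leaving out each other library gave 0.17 to 0.61.

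**Figure D2:**
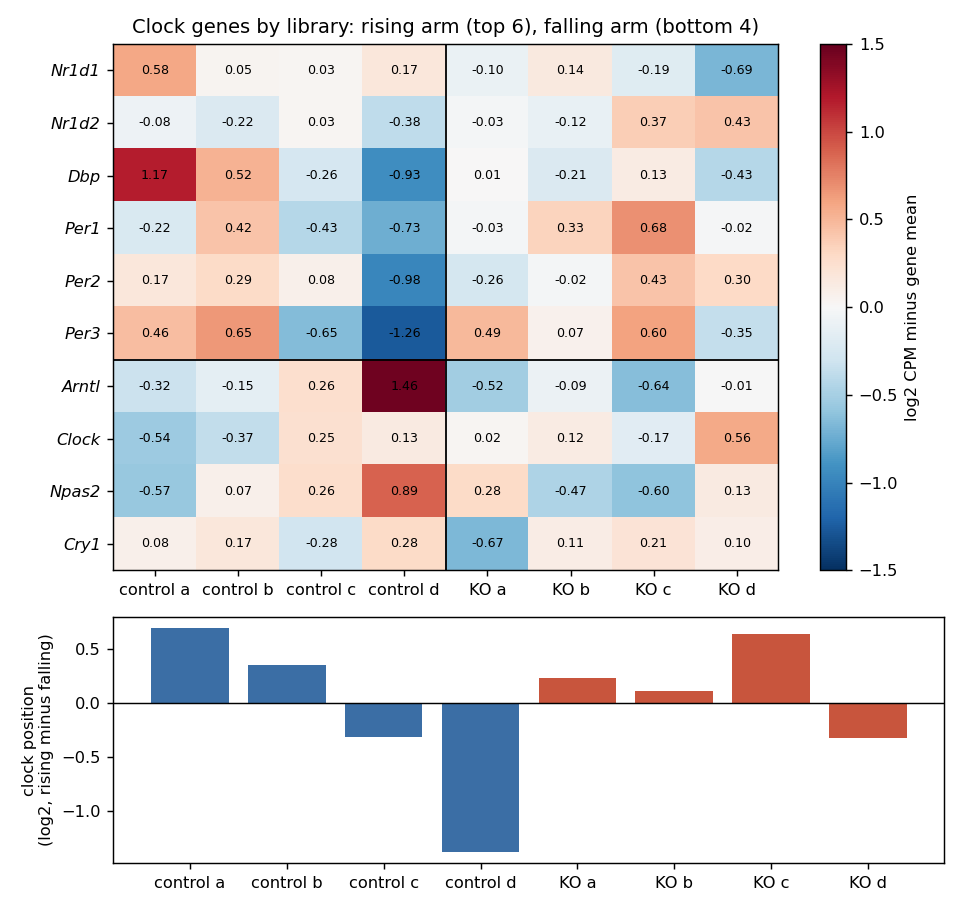
Top, log2 CPM of each clock member minus its mean over the 8 libraries, with red for higher and blue for lower, rising arm above the line and falling arm below it. Bottom, the clock position of each library (rising minus falling, log2), which runs from -1.38 in control d to 0.69 in control a, with the 4 Nnmt KO libraries between.

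The position was computed again with the other listed genes of a known arm added, making 12 rising and 5 falling genes. It was then 0.77, 0.44, -0.25 and -1.13 in control libraries and 0.04, 0.11, 0.40 and -0.38 in Nnmt KO libraries a to d. The difference of group means was 0.08 with this larger set. Control d remained the lowest and control a the highest, as for the members alone. Whether the mice were killed at different times of the day was not tested, as no time is given.

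Across mice, most pairs of genes from opposite arms had a negative correlation. Of the 24 pairs of a rising and a falling member, 19 had a negative Pearson r over the 8 libraries (median r -0.49), and 20 did so after each genotype's mean was subtracted (median r -0.59). Within the rising arm 12 of 15 pairs had a positive r (median 0.44). These pairs share libraries, scaling and genes, and no test was made over them.

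Each member was then set against Arntl over the 8 libraries, with exact permutation p-values adjusted over these 9 relations. Per3 had the strongest relation with Arntl (Pearson r = -0.91, exact permutation p = 0.000744, adjusted p = 0.0067; Spearman rho = -0.86, exact permutation p = 0.0107, adjusted p = 0.0964). Without the libraries farthest from the median Arntl, control d and Nnmt KO c, r of Per3 was -0.83 over 6 libraries. Npas2 (r = 0.76, adjusted p = 0.0606), Per1 (r = -0.75, adjusted p = 0.0606) and Per2 (r = -0.79, adjusted p = 0.136) did not pass in this exact permutation test. Their r was 0.18, -0.25 and 0.49 without the same libraries, so these relations rested on them. By library size only, Npas2 (r = 0.79) and Per1 (r = -0.79) did pass (adjusted p = 0.0281 for each, exact permutation), and their r without control d and Nnmt KO c was 0.44 and -0.45. Nr1d1, a direct repressor of Arntl, had r = 0.13 (exact permutation p = 0.67). The r of Clock, Cry1 and Nr1d2 was 0.35, 0.34 and -0.55, and none of these passed either.

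Dbp had r = -0.66 with Arntl over all libraries (adjusted p = 0.164, exact permutation; rho = -0.79). After each genotype's mean was subtracted, with libraries permuted within genotype, r was -0.92 for Dbp (exact permutation p = 0.00174, adjusted p = 0.0156, rho = -0.93) and -0.92 for Per3 (exact permutation p = 0.00521, adjusted p = 0.0234, rho = -0.95). Leaving out controls a and d gave r = -0.80 for Dbp and -0.87 for Per3. Among the 4 control libraries alone r was -0.92 for Dbp and -0.91 for Per3, and among the 4 Nnmt KO libraries it was -0.96 and -0.95, which is too few libraries for a test. These values depended on the scaling. By library size only, r among Nnmt KO libraries was -0.54 for Dbp and -0.61 for Per3. With genotype means subtracted on that scale, an alternative added after the data were seen, r was -0.86 for both genes and neither passed (adjusted p = 0.107, exact permutation). The TMM factor was 1.21 in Nnmt KO a and 0.952 to 0.977 in the other Nnmt KO libraries. At like levels of Arntl, Dbp was lower in Nnmt KO than in control libraries, as in Nnmt KO a (3.65 CPM Arntl, 32.6 CPM Dbp) beside control a (4.22 CPM Arntl, 73.2 CPM Dbp). That offset was noticed in the plot and was not tested.

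**Figure D3:**
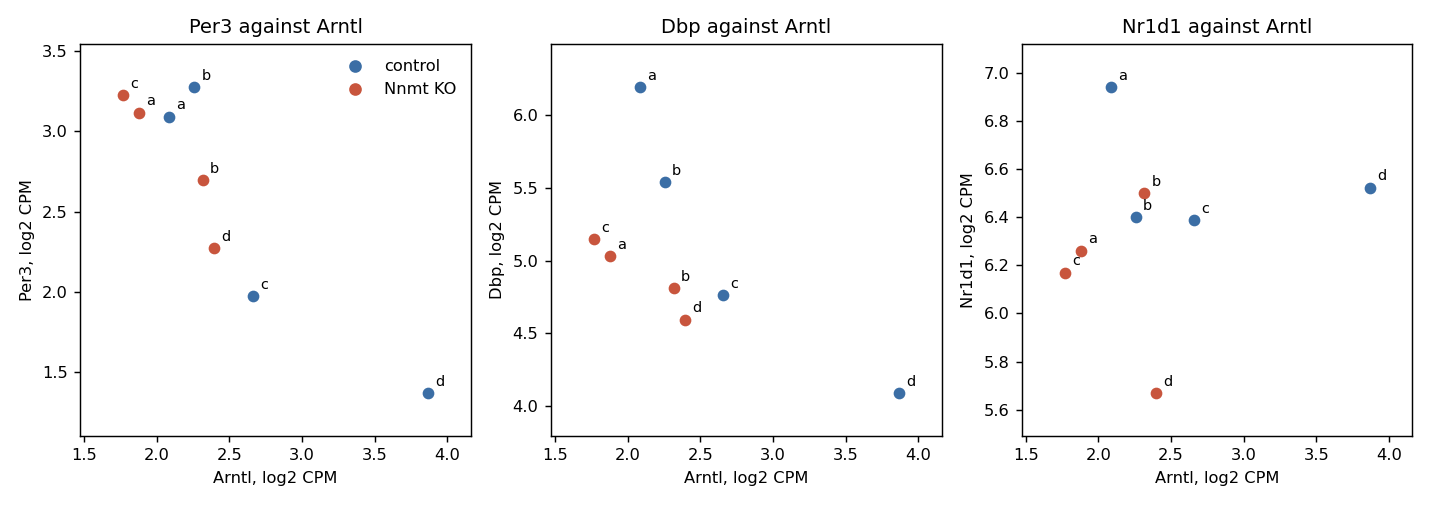
Log2 CPM of Per3, Dbp and Nr1d1 (y axes) against log2 CPM of Arntl (x axis), with 1 point per library (control blue, Nnmt KO red, letters a to d). Per3 falls along 1 line as Arntl rises (r = -0.91), Dbp falls within each genotype, with Nnmt KO points below control points of a like Arntl level and control d lowest of all (r = -0.66), and Nr1d1 shows no such trend (r = 0.13).

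Among all 15290 other tested genes, Per3 ranked 25th from the lowest r with Arntl, Per2 150th and Per1 250th, and Npas2 ranked 149th from the highest. The genes most like Arntl were Kif5a (r = 0.94), Lama3 (0.94), Plcxd2 (0.92), Map2k1 (0.92) and Magee1 (0.91), and those least like it were 4833420G17Rik (-0.98), Tssk6 (-0.96), Gm4841 (-0.96), Nup62cl (-0.95) and Tfeb (-0.95). For Dbp the highest r over the 8 libraries was that of Psme1 (0.99), Aatf (0.94), Hsf1 (0.93), Dlgap4 (0.93) and Trim8 (0.93). The lowest was that of Zmym6 (-0.97), Nr3c1 (-0.97), Spsb4 (-0.96), Sept10 (-0.95) and Gm5531 (-0.95). With 8 libraries and this many genes, such values are a description of likeness only.

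None of the other core clock genes passed the adjusted threshold. Of 17 listed, 16 were tested and Rorb was at 0 counts in every library. Of those tested, 10 were higher and 6 lower, with a median log2 fold change of 0.01. An unadjusted p under 0.05 was found for 1 of the 16 (6.25%), beside 12.6% of all tested genes. Cry2, the paralog of Cry1, had a log2 fold change of 0.10, and Rora, an activator of ROR elements, had 0.21. The Dbp relatives Tef and Hlf were at -0.01 (0.06 by library size only) and -0.09, and Nfil3, the repressor of D-boxes, was at 0.30. The E-box repressors Bhlhe40, Bhlhe41 and Ciart were at 0.07, -0.33 and 0.08. Timeless (-0.48, adjusted p = 0.367) was the only one of these with an unadjusted p under 0.05.

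Further genes of the rising arm differed in which library was lowest. Tef was at 92.2, 115, 142 and 93.8 CPM in Nnmt KO libraries and 144, 145, 85.7 and 72.4 CPM in control libraries. Ciart was at 7.54, 15.5, 23.2 and 13.1 CPM in Nnmt KO libraries and 13.6, 24.7, 10.3 and 7.39 CPM in control libraries. For both genes control d was the lowest library. Hlf was lowest in Nnmt KO d, and its SD was above that of 41.9% of tested genes. Bhlhe41 was lowest in Nnmt KO b, and Cry2, which is on neither arm here, in control c.

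Among genes through which the liver clock reaches metabolism and the cell cycle, Pdk4 rose. Of 17 such output genes, 12 were higher and 5 lower in Nnmt KO livers (median log2 fold change 0.18), and 5 (29.4%) had an unadjusted p under 0.05, beside 12.6% of all tested genes. Of these, 3 were higher and 2 lower, where the backgrounds were 5.45% and 7.13%. Pdk4, the kinase that holds back pyruvate oxidation, was at 263, 145, 198 and 132 CPM in Nnmt KO livers and 54.0, 70.8, 99.2 and 69.8 CPM in control livers. It was higher with no overlap between groups (log2 fold change 1.33, SE 0.24, adjusted p = 0.0496 by edgeR's quasi-likelihood test), the only output gene past the threshold. Its adjusted p was above 0.05 in 10 of 13 other settings (0.0512 to 0.216), among them the loss of any library other than Nnmt KO a, and it was 8.67e-06 by DESeq2.

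The remaining output genes with an unadjusted p under 0.05 did not pass after adjustment in edgeR. Cdkn1a, an inhibitor of the cell cycle, was at 87.4 to 92.9 CPM in Nnmt KO livers and 25.04 to 68.0 CPM in control livers (log2 fold change 0.93, adjusted p = 0.15). Wee1, a cell cycle kinase under E-box control, was at 2.30 to 3.09 CPM against 3.52 to 6.69 CPM (log2 fold change -0.87, adjusted p = 0.12). Tspan4 did not overlap between groups either (log2 fold change -0.52, adjusted p = 0.107). DESeq2 gave adjusted p-values of 0.0128 for Cdkn1a, 0.0155 for Wee1 and 0.00765 for Tspan4. Lpin1, a phosphatidate phosphatase, overlapped between groups (log2 fold change 0.87, adjusted p = 0.317).

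**Figure D4:**
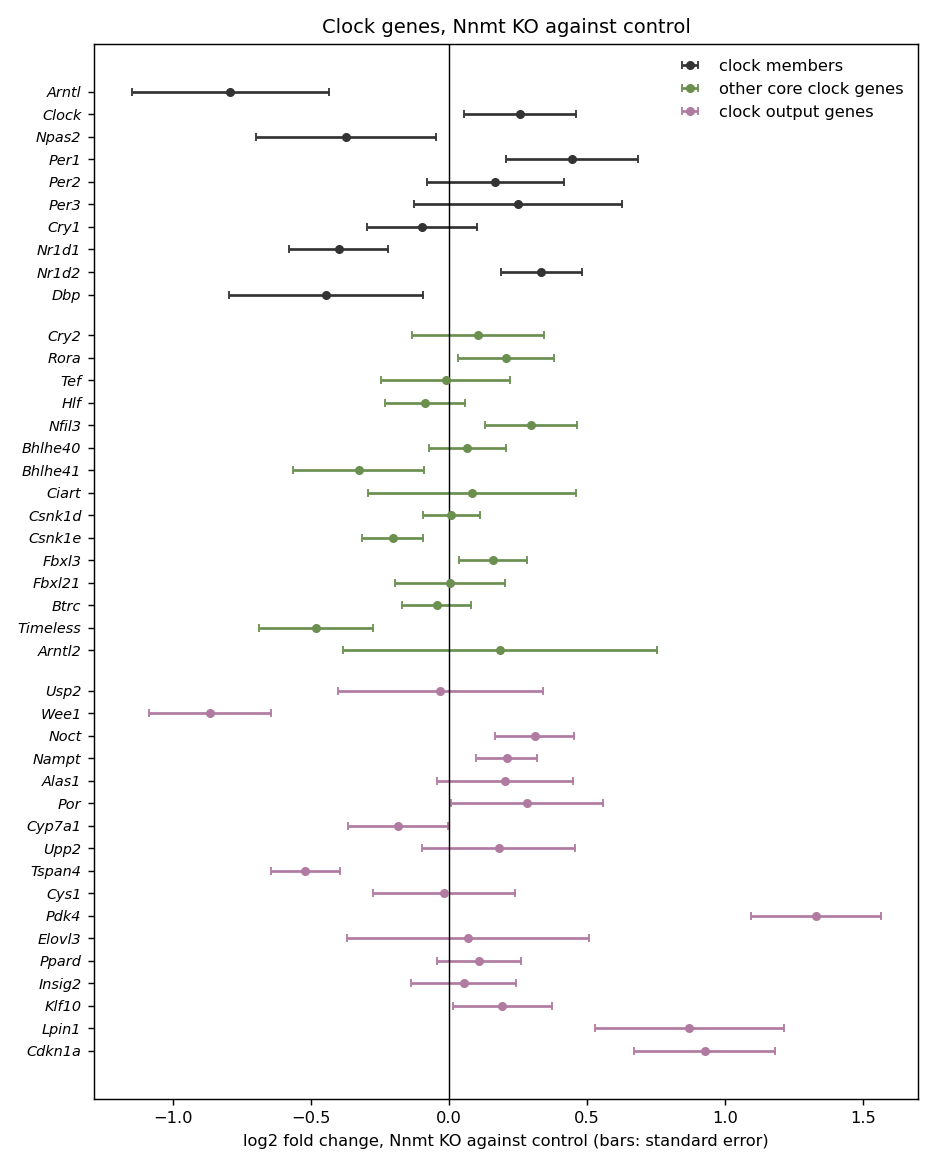
Log2 fold change of Nnmt KO against control livers (x axis, bars are 1 standard error) for the 10 members, 15 other core clock genes and 17 output genes among those tested. The members run from -0.79 (Arntl) to 0.45 (Per1) on both sides of 0, and Pdk4 (1.33) lies farthest to the right.

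Values that moved with these genes are given beside them. Arntl, Dbp, Wee1 and Tspan4 are the 4 tested clock and output genes on chromosome 7, and all 4 had a negative log2 fold change, against 12 of the 39 elsewhere. Genes within 100 to 125 Mb of chromosome 7, around Arntl and Wee1, had a median log2 fold change of -0.23 over 176 genes. Those from 125 to 150 Mb, around Tspan4, had -0.30 over 242 genes, and those from 25 to 50 Mb, around Dbp, had -0.06 over 334 genes. Of the genes in its stretch, 2.84% were lower than Arntl and 7.49% lower than Dbp. The part of the stretch in these values was not tested.

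Of the markers of other liver cells 0 passed an adjusted p of 0.05, and 3 stellate, 1 cholangiocyte and 1 lymphocyte marker had an unadjusted p under 0.05, as did 1 hepatocyte marker (background 12.6%). In Nnmt KO livers 9 of 9 stellate and fibroblast markers were higher (summed 487 to 940 CPM against 374 to 582), as were 8 of 9 Kupffer and macrophage markers (744 to 1266 against 545 to 1176), 6 of 6 cholangiocyte markers (89.4 to 279 against 50.3 to 167) and 7 of 8 lymphocyte markers (5.06 to 6.32 against 3.47 to 4.23). Over all tested genes, 7995 of 15291 were higher. Several stellate differences rested on Nnmt KO a. Col1a1 and Col3a1 were at 106 and 231 CPM there, and at 21.4 to 39.4 and 40.7 to 74.4 CPM in Nnmt KO b to d. In control livers they were at 18.3 to 70.4 and 42.1 to 101 CPM. For Lrat, Dcn and Reln, Nnmt KO a did not stand apart from the other Nnmt KO libraries. Endothelial markers were higher for 2 of 8 (288 to 335 against 230 to 428). Hepatocyte markers summed to 69897 to 123549 CPM in Nnmt KO livers and 89526 to 134129 CPM in control livers, with 4 of 9 higher. Control d, on which the Arntl and clock position differences rested, was the highest control library for Kupffer and macrophage markers (1176 CPM, against 545 to 756 in the other controls) and for endothelial markers (428 CPM, against 230 to 355). Nnmt KO a had the lowest hepatocyte sum (69897 CPM, where Nnmt KO b to d had 109991 to 123549 CPM). It also had the highest stellate (940 CPM), macrophage (1266 CPM) and cholangiocyte (279 CPM) sums of all libraries. Abundant genes weigh most in such sums. In Nnmt KO a, Spp1 made up 243 CPM of the cholangiocyte sum and Lyz2 527 CPM of the macrophage sum. Not every marker was highest there, as Clec4f was at 96.1 CPM in Nnmt KO a and at 109 to 118 CPM in Nnmt KO b to d. In control d, Lyz2 made up 460 CPM of the macrophage sum. Among controls, Lyz2, Cd5l, Vsig4, Adgre1, Csf1r and Cd68 were highest in control d, and Clec4f, Timd4 and Marco were not. No marker was at 0 in every library, and the part of these cells in the clock gene values was not tested.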

How the data were processed

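RNA-seq of liver from 4 Nnmt KO and 4 control mice on the MCD diet was used. Total RNA was taken with TRIzol. The labels name NEBNext Ultra as the library kit and the study's methods name KAPA RNA HyperPrep. Reads were aligned and quantified by the authors in HISAT2, and the submitters' processing notes also name StringTie and mm10. Tool versions, the annotation and the strand setting are not given in the sources used here. The authors deposited whole-number read counts per gene without normalization, in 8 columns, all of which were used.

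Members were matched by gene symbol. Counts were filtered (edgeR's filterByExpr, minimum count 10), scaled by TMM and tested with the quasi-likelihood test of edgeR 4.0.16 in R 4.3.3, with Benjamini-Hochberg adjustment over 15291 genes. Standard errors were derived from the F statistic and the log2 fold change. Log2 CPM used a prior count of 2. DESeq2 1.42.0, named by the study for its own comparison, was an alternative, as were other scalings, no filter and leaving out each library. Exact permutation tests were two-sided. The edgeR and DESeq2 p-values set a group difference against the variation between these libraries. Permutation p-values count the reassignments of these libraries that gave a value at least as extreme. Positions are from GENCODE M21 (GRCm38), matched by gene identifier for 15146 of the tested genes, and Ciart was listed under an older symbol. CPM per kb divides by the merged exon length.

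The members, lists and comparisons were chosen with earlier results of these data known. The genes named are all members, Nnmt, 8 fixed paralogs or partners (a further 1 is not reported here), any other listed core clock or output gene with an unadjusted p under 0.05, and the 5 genes most and least like Arntl and Dbp. Thra and Sphk2 were named for their overlap with members. On simulated counts for 15291 genes, 200 of them changed by 1.5 on the log2 scale, 149 (74.5%) were called, with 10 unchanged genes called, and 0 were called when nothing was changed. The members changed by less (-0.79 to 0.45), and how often changes of that size would be called was not simulated.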

Additional observations from a re-analysis of the deposited data

Results flagged for a closer look

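Of 54 groups of 4 libraries examined for a library far from the other 3, 2 were marked, where chance gives about 1 in 20. Cry1 was at 5.66 CPM in Nnmt KO library a, while the other Nnmt KO libraries were at 9.65 to 10.4 CPM. The TMM factor of the same library was 1.21, while the other Nnmt KO libraries had 0.952 to 0.977. The same library had the lowest summed hepatocyte markers (69897 CPM) and the highest stellate, macrophage and cholangiocyte sums, in which abundant genes weigh most. The part of these in either value was not tested.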

How the results depend on the processing

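No clock member passed an adjusted p of 0.05 in any of 13 alternatives (the lowest was 0.197, for Per1), and Arntl, Clock, Npas2, Per1, Nr1d1 and Nr1d2 kept their direction in all of them. Members with an unadjusted p under 0.05 numbered 1 of 10 with no filter on low counts and 0 to 3 when each library was left out. Of the 16 other core clock and 17 output genes tested, 1 passed the adjusted threshold in the main fit, where 0.32% of all tested genes did. The count was 0 with DESeq2 size factors, 0 by library size only and 0 with no filter. It was 4 by the DESeq2 test, where the background was 3.22%, and 0 to 1 when each library was left out. Log2 fold changes that changed sign on leaving out a library ran from -0.047 to 0.30 (Per2), -0.0069 to 0.57 (Per3), -0.20 to 0.066 (Cry1), -0.70 to 0.013 (Dbp), -0.075 to 0.35 (Cry2), -0.17 to 0.15 (Tef), -0.032 to 0.17 (Bhlhe40) and -0.22 to 0.52 (Ciart). Tef was at 0.058 by library size only. The correlation of Nr1d1 with Arntl was -0.26 after genotype means were subtracted. The cause was not tested. By library size only, the correlations of Npas2 and Per1 with Arntl passed (adjusted p = 0.0281 each, exact permutation), and those of Dbp and Per3 with genotype means subtracted did not (adjusted p = 0.107). The clock position difference moved by less than the pooled SD under the other scalings, the larger gene set and the loss of each library, and ran from -0.076 without control d, where its sign turned, to 0.61 without control a. No paired analysis was possible because the columns carry no mouse number. With 4 mice per genotype, spread between mice and not depth limits these comparisons.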

Other observations

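Genes that answer to signals able to reset the liver clock were described in the same way. Of 12 glucocorticoid receptor targets, 10 were higher in Nnmt KO livers (median log2 fold change 0.39), 2 of them with an unadjusted p under 0.05 (Sgk1 at 0.43 and Pck1 at 0.42) and 0 past an adjusted p of 0.05 by edgeR's quasi-likelihood test. Per1, itself a clock member of the rising arm, is among the 12 targets and among the 10 that were higher. Over all tested genes 12.6% had an unadjusted p under 0.05. The summed level of the 12 targets, Per1 included, was 5987 to 7969 CPM in Nnmt KO and 4145 to 7367 CPM in control livers. Control d, the library of lowest clock position, was also the lowest here. Tat and Pck1 made up most of that sum, at 1317 and 1606 CPM in control d. Control d was not the lowest control for every target, with Klf9, Lcn2, Sgk1, Dusp1 and Sds being exceptions. For Dusp1 and Sds, control a was only slightly lower. Of 8 temperature responsive genes, 5 were higher and 0 had an unadjusted p under 0.05. Of 9 immediate early genes, 4 were higher and 5 lower. Btg2 was higher, and Fosb (-1.505 on the log2 scale) and Atf3 (-0.70) were lower, at an unadjusted p under 0.05, which is 3 of 9 beside the same 12.6%, and none passed after adjustment.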
